A study of Mus musculus with 39 samples.

Results

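The genes described here are the chemokines and chemokine receptors of lymphomas of Eµ-myc mice. They are the genes whose symbol is Ccl, Cxcl, Xcl, Ccr, Cxcr, Xcr or Cx3c followed by a number code, with 4 genes (Cxcl9, Cxcl10, Ccl5 and Cxcr2) left out by the rule. A gene had to have a probe set that names it alone, and the probe set with the highest mean stood for it. This gave 46 genes of 18193, made up of 30 ligands and 16 receptors. Each of 39 tumours of Eµ-myc mice was profiled on its own array of short oligonucleotides. In the Eµ-myc transgene an immunoglobulin heavy chain enhancer drives Myc, so that Myc is overproduced in B lineage cells, and carriers develop lymphomas. All tumours form 1 group of this genotype, with no normal tissue and no treatment, so the comparisons run from tumour to tumour. The labels do not say that every tumour came from a separate mouse, and p-values therefore measure only the spread between these samples.

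Chemokines are small secreted proteins that form gradients on which leukocytes travel, and their receptors are membrane proteins that signal through inhibitory G proteins. Homeostatic chemokines place lymphocytes in follicles, T cell zones, bone marrow and gut, while inflammatory chemokines recruit monocytes, neutrophils and effector lymphocytes. B cells change their receptors as they mature: Cxcr4 keeps precursors near bone marrow stroma, and Cxcr5 and Ccr7 guide mature B cells within lymph nodes and spleen.

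Levels are log2 values, in which 1 unit is a 2-fold change. Array medians ran from 5.61 to 5.78, pairs of arrays correlated with r between 0.889 and 0.991, and hybridisation controls averaged between 10.23 and 11.00 per array. The labels name no batch, so none could be used. Levels of one gene are compared only between tumours, because different probe sets bind with different strength. A cell score centres each gene of a marker list on its own mean and averages the centred levels over the list. The tumours 2, 5, 6, 8, 19, 23 and 26 stood apart, because the pan B cell score was below -1 or the Myc level below 10. Tumour 2 was the tumour with the low Myc level (8.19), and its pan B cell score was 0.37. The pan B cell scores of tumours 5, 6, 8 and 23 ran from -2.66 to -1.95, so that B cell markers were low there. The 7 tumours are kept below unless stated, and calls of these genes that were lost without them are named below.

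As a group these genes varied widely between tumours. An SD of at least 1 was found for 16 of the 46 genes, against 7.33% of all genes, and an SD of at least 0.5 for 30, against 27.7%. Their median SD was 0.71, and that of all genes 0.32. Without the 7 tumours that stood apart, 8 of the 46 had an SD of at least 1, against 4.18% of all genes. In bulk tissue, fewer cells of a type and less RNA per cell cannot be told apart, and this holds for every level below. Over all 39 tumours and with 1 probe set per gene, the receptors of B cell homing varied most as a class (median SD 1.32 over 6 genes). Inflammatory CC ligands followed with 0.88 over 13 genes. Myeloid and other receptors (0.85 over 6), receptors of T or NK cells (0.67 over 4), inflammatory CXC or C ligands (0.53 over 7) and homeostatic ligands (0.49 over 10) varied less. This ranking was not repeated without the 7 tumours or with other probe sets, and the homing receptors Cxcr4 and Ccr7 were lowest in tumours 6, 8 and 23. At the other end, 8 genes never exceeded the median of their array in any tumour, namely Ccr3, Ccr4, Ccr8, Ccr1l1, Ccl1, Cxcl3, Cxcl5 and Cxcl15. Another 8 exceeded it in all 39 tumours, namely Ccl2, Ccl4, Ccl6, Ccl8, Ccl9, Cxcl1, Cxcl12 and Cxcl16.

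**Figure D1:**
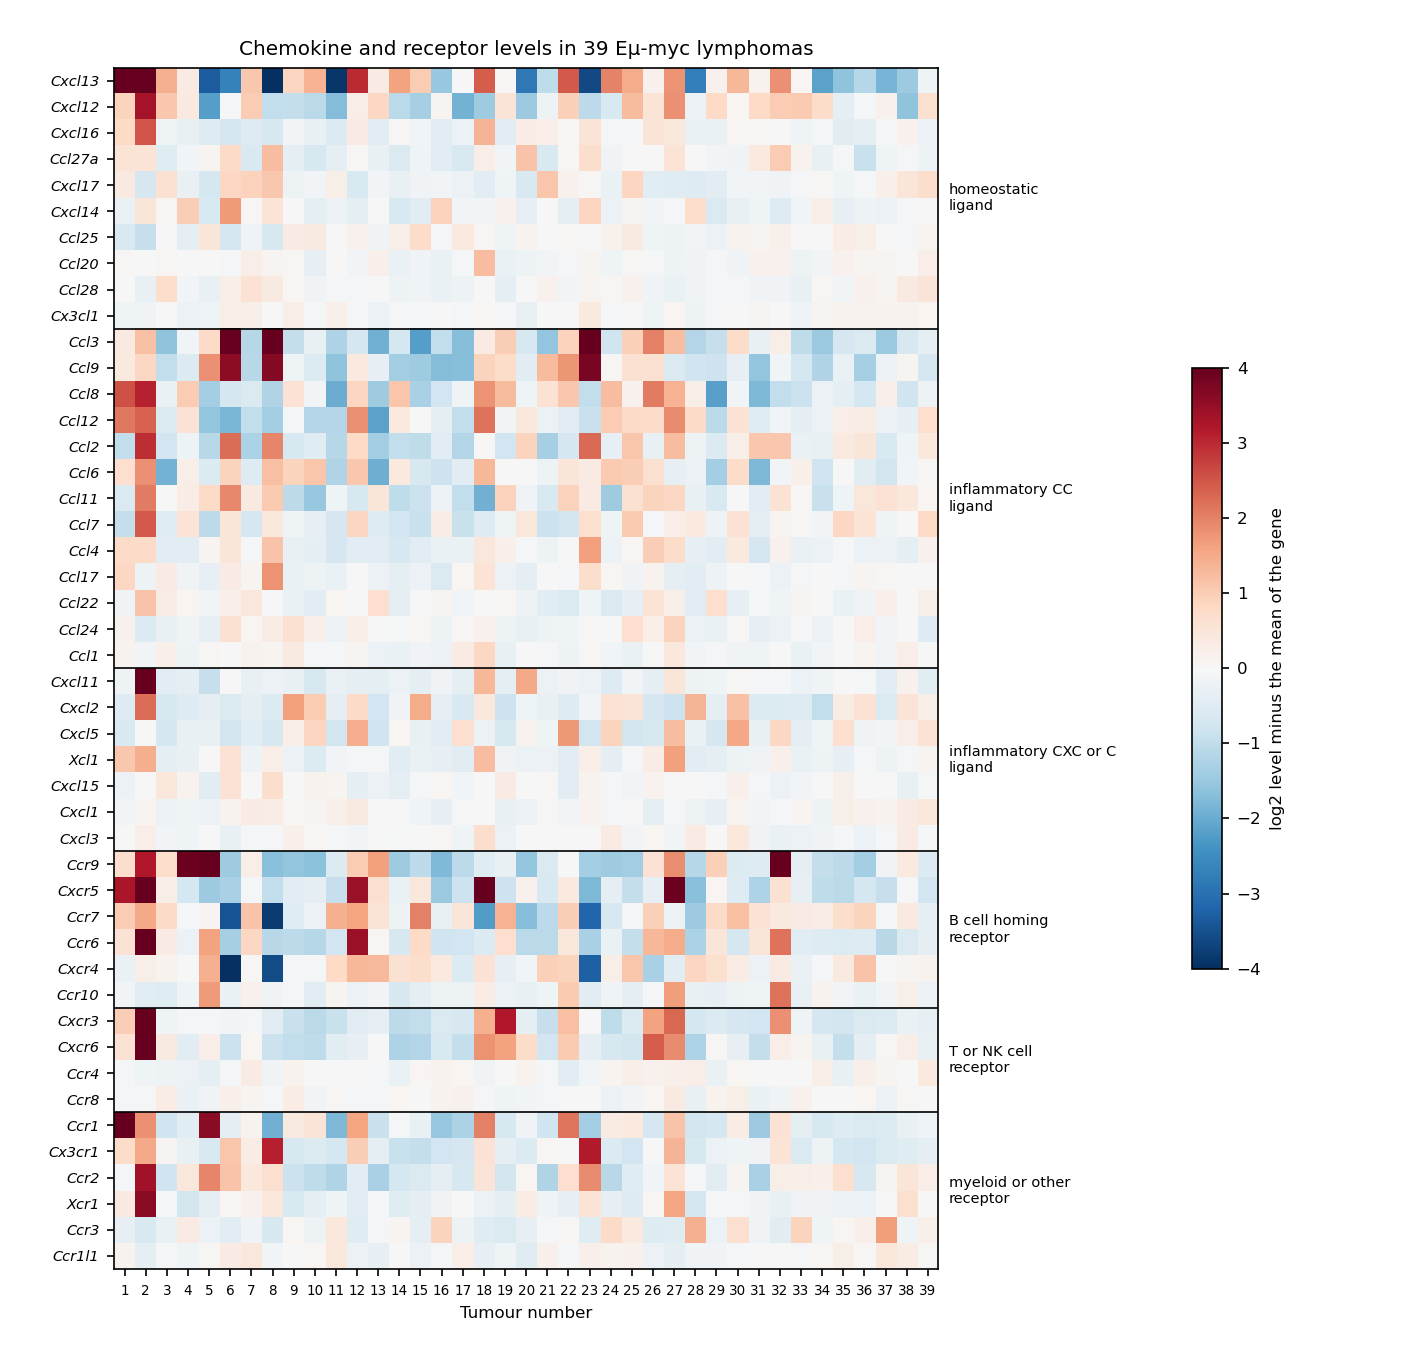
Level of each of the 46 genes (vertical axis, grouped by role) in each of the 39 tumours (horizontal axis), as log2 level minus the gene's mean, on a colour scale cut off at the same distance above and below the mean. Tumour 2 is red for many genes, tumours 6, 8 and 23 are red for Ccl3 and Ccl9 and blue for Cxcr4 and Ccr7, and tumours 5 and 32 are red for Ccr9 and Ccr10.

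Cxcl13, which stromal and follicular dendritic cells make to draw B cells into follicles, had the largest spread. Its level ran from 4.44 in tumour 8 through a median of 9.01 to 13.83 in tumour 2, with a mean of 8.83 ± 2.23 (SD, n = 39). The values formed no separate cluster and filled the range, with 13.37 in tumour 1 and 11.81 in tumour 12 next to the top. Cxcl12, the ligand of Cxcr4 made by marrow and node stroma, ran from 7.42 in tumour 5 through 9.73 to 12.94 in tumour 2 and averaged 9.61 ± 1.16. The probe sets of Cxcl12 disagreed: of its other probe sets, one correlated with the set used at r = 0.78 and one at 0.0060. Cxcl16, a membrane-bound ligand of Cxcr6, averaged 7.44 ± 0.58, and its levels of 9.96 in tumour 2 and 8.79 in tumour 18 lay above those of the other tumours. Ccl25, the ligand of Ccr9 made in thymus and small intestine, stayed between 5.49 and 7.16, with its lowest level in tumour 2. Cxcl14 ran from 4.93 to 7.27 (tumour 6) and Ccl20, the ligand of Ccr6, from 4.29 to 5.87 (tumour 18), where the next highest value was 4.91. Cx3cl1, the ligand of Cx3cr1, had the smallest SD of the 46 genes (0.15) with the probe set used. Its other probe sets had an SD of 0.363, 0.235 and 0.197, and the first correlated with the set used at r = 0.239. Other probe sets also varied more than the set used for Ccl28 (SD up to 0.997 against 0.246), Ccl25 (0.604 against 0.329), Cxcl14 and Cxcl16. For Cxcl13 and Cxcl12 they varied less. Low spread of these ligands therefore depends on the probe set.

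Several inflammatory CC ligands were far higher in a few tumours than in the rest. Ccl3, a ligand of Ccr1 that macrophages and activated B cells secrete, ran from 4.12 in tumour 15 through a median of 5.69 to 11.69 in tumour 8, and averaged 6.33 ± 1.81. Tumours 8, 6 and 23, at 11.69, 11.40 and 11.39, formed a separate cluster in a mixture model with 2 components, and the next tumour stood at 8.35 (tumour 26). Ccl9, a rodent ligand of Ccr1, was highest in the same 3 tumours: 12.60 in tumour 23, 12.46 in tumour 8 and 12.38 in tumour 6, against a median of 8.48 and a lowest level of 7.07. Ccl4, a gene next to Ccl3, was highest in tumour 23 (8.30) and tumour 8 (7.81), with a median of 6.45. Ccl6, another rodent ligand of Ccr1, ran from 7.60 in tumour 13 to 11.36 in tumour 2. The monocyte attractant Ccl2 ran from 5.80 in tumour 13 through 6.89 to 10.13 in tumour 2, with 9.44 in tumour 23 and 9.41 in tumour 6. Ccl7, which also binds Ccr2, was at 8.01 in tumour 2, and the next tumour was at 6.58. Ccl11, the eosinophil attractant, ran from 4.02 in tumour 18 to 8.02 in tumour 2, and tumour 6 was next at 7.87. Ccl8, which in mice attracts cells through Ccr8, ran from 7.79 in tumour 29 through 9.80 to 13.06 in tumour 2, and Ccl12, a mouse ligand of Ccr2, from 4.37 in tumour 13 through 6.40 to 8.87 in tumour 2. For both, tumour 1 was among the next highest, with 12.53 for Ccl8 and 8.62 for Ccl12, while tumours 6, 8 and 23 were below the mean. The Ccr4 ligands Ccl17 and Ccl22 varied little (SD 0.41 and 0.36), and the 7.21 of Ccl17 in tumour 8 lay well above its next value of 6.23.

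Cxcl13, Ccl8 and Ccl12 are the 3 ligands with the largest negative slopes along B cell stage (given further on), and their promoters are shown as 300 bases, 250 before and 50 after the annotated start, from RefSeq on GRCm38.p6. Capitals mark the letters TATAAA of a TATA box, which were found at positions -46 to -41 from the start in Cxcl13, -32 to -27 in Ccl8 and -31 to -26 in Ccl12.
Cxcl13 promoter, chr5:95956689-95956988, plus strand: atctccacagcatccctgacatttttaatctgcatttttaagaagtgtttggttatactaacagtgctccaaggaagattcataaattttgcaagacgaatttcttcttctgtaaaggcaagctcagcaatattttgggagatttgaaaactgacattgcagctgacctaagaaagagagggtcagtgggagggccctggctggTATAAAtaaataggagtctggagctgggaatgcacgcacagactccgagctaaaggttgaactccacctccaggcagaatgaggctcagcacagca
Ccl8 promoter, chr11:82114935-82115234, plus strand: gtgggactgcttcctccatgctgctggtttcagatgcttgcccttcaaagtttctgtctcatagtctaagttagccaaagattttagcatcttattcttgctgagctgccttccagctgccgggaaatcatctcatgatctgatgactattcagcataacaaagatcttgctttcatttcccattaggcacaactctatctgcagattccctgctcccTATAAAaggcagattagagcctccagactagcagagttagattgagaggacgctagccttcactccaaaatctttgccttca
Ccl12 promoter, chr11:82101595-82101894, plus strand: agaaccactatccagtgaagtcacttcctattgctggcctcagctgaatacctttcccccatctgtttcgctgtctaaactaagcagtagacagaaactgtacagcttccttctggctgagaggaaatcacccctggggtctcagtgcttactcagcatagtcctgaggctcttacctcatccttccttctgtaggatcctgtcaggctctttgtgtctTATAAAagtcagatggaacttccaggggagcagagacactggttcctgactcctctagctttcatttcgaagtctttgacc

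TATAAA, sought on both strands, was present in 28.9% of the 38 promoters found for 34 of the 46 genes and in 13.6% of all 32851 promoters of this length. Ccl8 and Ccl12, next to each other on chromosome 11, were identical at 55.7% of aligned positions, while Cxcl13 was identical to Ccl8 at 47.7% and to Ccl12 at 45.2%.

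Among inflammatory CXC and C ligands, Cxcl11 stood out through 1 tumour. It ran from 3.47 through 4.16 to 10.29 in tumour 2, and the next tumour was at 5.91 (tumour 20). RefSeq lists this mouse gene as a transcribed pseudogene, and its product where functional is a ligand of Cxcr3. The neutrophil attractants Cxcl2 and Cxcl5 reached 6.01 (tumour 2) and 5.50 (tumour 22) from medians of 3.44 and 3.53, and Cxcl5 never exceeded an array median. Xcl1, a ligand that T and NK cells release, formed a separate cluster of high tumours (1, 2, 18 and 27), with 5.96 in tumour 27 against a median of 4.13. Cxcl1 and Cxcl3, further neutrophil attractants, hardly varied (SD 0.21 each), although another probe set of Cxcl1 had an SD of 0.78 and a correlation of 0.44 with the one used.

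The promoters of Cxcl1, Cxcl2 and Cxcl3 are shown because they hold the letters GGGANTTTC of an NF-kB motif, sought on both strands and marked in capitals, together with CACGTG (E-box) and TATAAA in Cxcl3. The NF-kB letters lay at positions -71 to -63 in Cxcl1, -97 to -89 in Cxcl2 and -73 to -65 in Cxcl3, with no overlap with the other motifs.
Cxcl1 promoter, chr5:90890995-90891294, plus strand: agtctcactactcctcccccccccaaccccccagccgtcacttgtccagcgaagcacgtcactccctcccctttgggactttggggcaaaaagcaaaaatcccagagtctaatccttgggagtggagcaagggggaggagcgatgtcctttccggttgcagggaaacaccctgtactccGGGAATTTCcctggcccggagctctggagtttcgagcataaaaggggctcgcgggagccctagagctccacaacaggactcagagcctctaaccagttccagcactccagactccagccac
Cxcl2 promoter, chr5:90903649-90903948, plus strand: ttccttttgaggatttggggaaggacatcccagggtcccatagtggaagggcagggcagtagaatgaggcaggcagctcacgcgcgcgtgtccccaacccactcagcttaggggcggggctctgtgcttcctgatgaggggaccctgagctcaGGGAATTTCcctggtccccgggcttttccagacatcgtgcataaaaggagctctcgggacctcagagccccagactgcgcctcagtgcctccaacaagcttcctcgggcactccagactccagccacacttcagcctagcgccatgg
Cxcl3 promoter, chr5:90785851-90786150, plus strand: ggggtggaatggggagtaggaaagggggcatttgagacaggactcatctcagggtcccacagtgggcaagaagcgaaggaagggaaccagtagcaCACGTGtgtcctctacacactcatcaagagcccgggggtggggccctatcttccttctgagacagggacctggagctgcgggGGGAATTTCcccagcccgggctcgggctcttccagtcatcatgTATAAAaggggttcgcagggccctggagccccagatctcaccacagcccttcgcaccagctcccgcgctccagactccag

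Of the 38 promoters, 4 (10.5%) held GGGANTTTC, the remaining one being that of Ccr3, against 1.11% of all promoters. A longer pattern, the same letters followed by C, had been searched first; the same 4 promoters held it, against 0.411% of all promoters. The AP-1 motif TGANTCA was present in 15.8% against 7.81%, and CACGTG in 5.26% against 7.15%. A match is a description of letters, and no factor was measured at these sites. The promoters of Cxcl2 and Cxcl3 were identical at 57.6% of aligned positions, and that of Cxcl1 at 53.6% with Cxcl2 and 53.2% with Cxcl3.

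Each of the 6 receptors of B cell homing had an SD of at least 0.5, and 5 of them of at least 1. Ccr9, which directs cells to the small intestine and is also carried by plasmacytoid dendritic cells, ran from 3.85 in tumour 16 through 5.07 to 11.54 in tumour 32, and averaged 5.61 ± 1.81. Its high cluster held tumours 32, 5, 4 and 2, at 11.54, 10.20, 9.53 and 8.80. The plasmacytoid dendritic cell score was 3.90 in tumour 32 and 3.52 in tumour 5, and 0.77 in tumour 4 and -0.02 in tumour 2. Tumours 19, 22 and 26 came next in this score (2.02, 1.77 and 1.60). Their Ccr9 levels of 5.31, 5.60 and 6.20 lay outside the high cluster. The part of such cells in the Ccr9 level was not tested. Ccr10, a receptor of plasma cells and skin-homing T cells, was high in tumours 32, 5, 27 and 22, at 8.07, 7.59, 7.57 and 6.95 against a median of 5.72. Cxcr5, the receptor of Cxcl13, ran from 3.40 in tumour 23 through 4.73 to 9.90 in tumour 2, and averaged 5.19 ± 1.64. The high tumours 2, 18, 27, 12 and 1 lay between 8.44 and 9.90, and the highest of the other 34 was at 5.82. Ccr6, the receptor of Ccl20, was highest in tumour 2 (10.92) and tumour 12 (10.08), against a median of 6.14.

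Cxcr4 and Ccr7 were present in nearly all tumours and low in few. Cxcr4 ran from 5.36 in tumour 6 through 9.70 to 10.95 in tumour 5, with 5.97 in tumour 8 and 6.28 in tumour 23, which formed a low cluster with tumour 6. The next lowest tumour was at 8.24. Ccr7, which brings cells to T cell zones, ran from 4.45 in tumour 8 through 8.62 to 10.30 in tumour 15, and tumours 6 and 23 were at 4.84 and 5.13. The 3 tumours with the highest Ccl3 and Ccl9 had the lowest Cxcr4 and Ccr7. Their pan B cell scores (-2.39, -1.95 and -2.37 in tumours 6, 8 and 23) were low, their fibroblast scores (1.00, 1.29 and 0.96) were high, and their macrophage scores were 1.08, 0.57 and 0.78; the part of these cells in the 4 levels was not tested.

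Receptors of effector T cells and NK cells were high in a minority of tumours. Cxcr3 ran from 5.50 in tumour 10 through 6.16 to 10.71 in tumour 2, with a high cluster of tumours 2, 19, 27, 32, 26, 18 and 22. Cxcr6 reached 9.20 in tumour 2 and 7.28 in tumour 26, against a median of 4.54. Ccr4 and Ccr8, receptors of helper and regulatory T cells, were among the genes that varied least (SD 0.19 and 0.16). Among myeloid receptors, Ccr1 ran from 4.13 in tumour 8 through 5.68 to 10.04 in tumour 1, and tumour 5 was next at 9.66. Ccr2, which monocytes use to leave the marrow, was at 10.33 in tumour 2 and 8.94 in tumour 5, against a median of 6.91. Cx3cr1, a marker of monocytes and resident macrophages, was at 9.30 in tumour 23 and 9.26 in tumour 8, against a median of 5.78. Xcr1, a receptor of cross-presenting dendritic cells, was at 7.60 in tumour 2, and the next tumour was at 5.56.

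**Figure D2:**
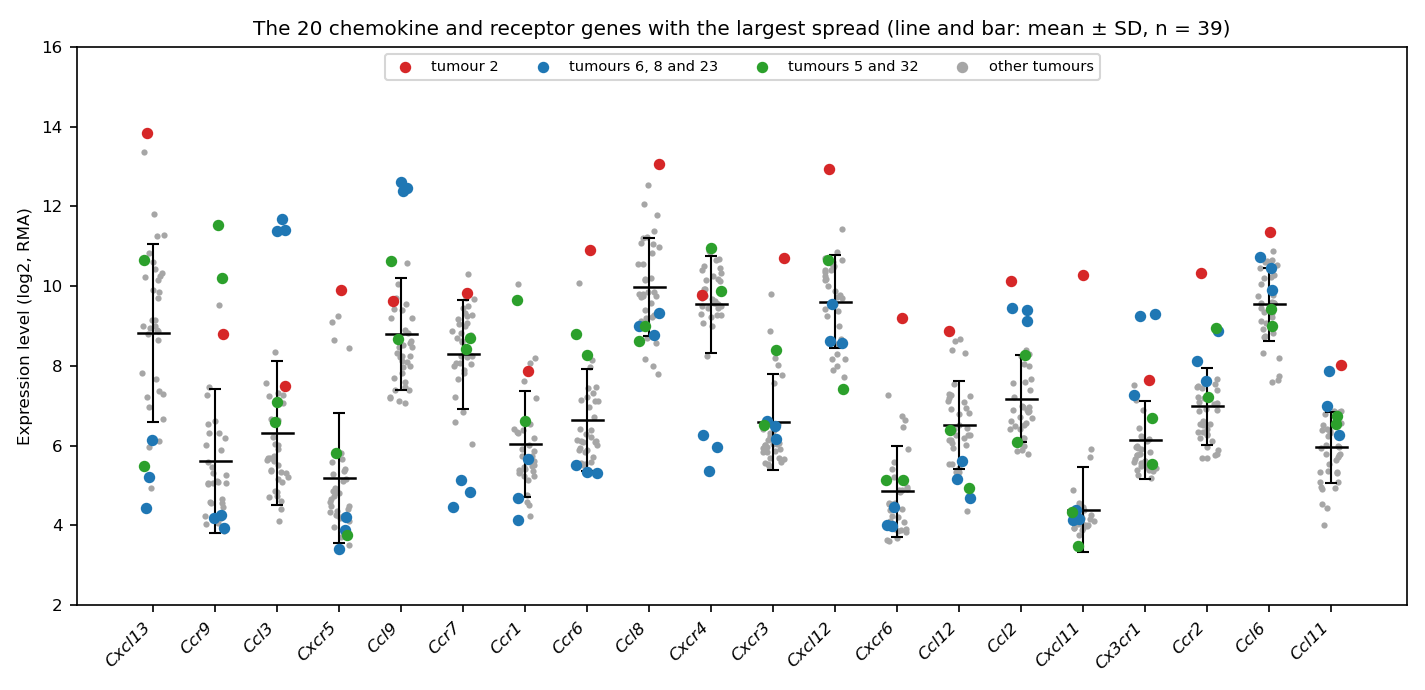
Levels (log2, vertical axis) of the 20 genes with the largest SD in the 39 tumours, 1 point per tumour, with the mean and SD as a line and bar. Tumour 2 is the top point for Cxcl13, Cxcr5, Ccr6, Ccl8 and Cxcr3 among others, and tumours 6, 8 and 23 are the 3 top points for Ccl3 and Ccl9 and the 3 lowest for Cxcr4 and Ccr7.

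Tumour 2 held the highest level of 18 of the 46 genes, against 8.02% of all genes, and of 17 of the 30 with an SD of at least 0.5, against 15.0% of all genes with such an SD. No other tumour was highest for more than 4. This tumour also had the highest T cell (2.48), cytotoxic and NK cell (3.14), macrophage (1.14), mature B cell (2.48) and NF-kB target (2.11) scores and the lowest G2/M proliferation score (-2.50). The part of these cells in its chemokine levels was not tested, and results that rest on it are given without it.

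The genes were next set against the amount of other cells in the tissue, by fitting every gene with limma on a cell score. A slope is the change in log2 level for each SD of that score, tests were 2-sided, adjusted p-values are Benjamini-Hochberg values over all genes tested, and the threshold was 0.05. Slopes do not say which cell carries the transcript. Along the T cell score, 15 of the 46 genes rose and 1 fell, against 7.18% and 8.00% of all genes. The homing receptors Ccr9 (1.23 ± 0.21, SE, adjusted p = 7.2e-05), Cxcr5 (1.21 ± 0.18, 4.9e-06) and Ccr6 (0.96 ± 0.14, 2.8e-06) rose. Cxcr6 (0.94 ± 0.10, 2.3e-08) and Cxcr3 (0.93 ± 0.12, 8.7e-07) rose as well, as did the ligands Cxcl13 (1.17 ± 0.30, 0.0070) and Cxcl12 (0.72 ± 0.15, 0.00056). Ccl25 fell, by 0.15 per SD. Ccr4 and Ccr8, chemokine receptors that T cells carry, did not pass, nor did Ccr7 or Cxcr4. Ccr4 and Ccr8 never exceeded an array median and hardly varied (SD 0.19 and 0.16), so a slope could be missed there. Leaving out tumour 2, where 2.77% of all genes rose and 0.996% fell, left 7 of the 16: Ccr9 (1.14), Cxcr5 (0.95), Ccr6 (0.69), Cxcr3 (0.67), Cxcr6 (0.66), Cxcl12 (0.51) and Xcl1 (0.26), all with an adjusted p of at most 0.038. Ccr10 passed there too (0.34, 0.011). Without that tumour Cxcl13 had a slope of 0.86 (0.12), Cxcl16 of 0.15 (0.21), Xcr1 of 0.18 (0.091) and Cxcl11 of 0.09 (0.58), and Ccl8, Ccl11, Ccl22, Ccl25 and Ccr1 did not pass either. Without the 7 tumours that stood apart 12 genes rose and 2 fell, against 7.34% and 6.01% of all genes, and Cxcl13 (0.69, 0.14), Cxcl11 (0.12, 0.34), Ccl8 (0.18, 0.60), Ccl11, Ccr1 and Cxcl16 did not pass.

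Along the macrophage score 13 genes rose and 2 fell, against 14.7% and 15.5% of all genes. The largest slopes were those of ligands that macrophages make: Ccl3 (1.26 ± 0.21, adjusted p in limma 2.2e-05), Ccl9 (0.97 ± 0.16, 3.3e-05), Ccl6 (0.71 ± 0.09, 2.9e-06), Ccl2 (0.60 ± 0.15, 0.0018) and Ccl8 (0.58 ± 0.17, 0.0089). Ccl4, Ccl7, Ccl11, Cx3cr1 and Ccr2, the last 2 being monocyte and macrophage receptors, also rose. Cxcr4 (-0.57 ± 0.17, 0.010) and Ccl25 (-0.15 ± 0.05, 0.013) fell. Without the 7 tumours that stood apart 6 genes rose and none fell, against 1.01% and 0.319% of all genes, among them Ccl6 (0.66, 0.00085), Ccl8 (0.66, 0.023), Ccl9 (0.54, 0.017) and Ccl3 (0.52, 0.025). In that setting Ccr1 (0.89, 0.00056) and Cxcl13 (1.18, 0.014) passed, Ccl2 had a slope of 0.08 (0.81), and Cxcr4 turned to 0.07 (0.75). Cx3cr1 (0.16, 0.41), Ccr2 (0.14, 0.56), Ccl25 (-0.02, 0.89), Ccl4, Ccl7, Ccl11, Ccl27a, Cxcl16 and Xcl1 did not pass there either. With the T cell and fibroblast scores in the fit 7 genes rose and none fell, against 6.64% and 9.75% of all genes, and Ccl2 (0.31, 0.23), Cxcr4 (-0.42, 0.16) and Ccl25 (-0.05, 0.57) were among those that did not pass. Without tumour 2 alone, Ccl8 (0.42, 0.069), Ccr2 (0.30, 0.067), Ccl7 (0.15, 0.27), Ccl11 (0.26, 0.14), Ccl25, Cxcl16 and Xcl1 did not pass.

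Along the fibroblast score 11 genes rose and 3 fell, against 10.7% and 5.46% of all genes. The largest positive slopes were those of Ccl3 (1.18 ± 0.22, adjusted p in limma 0.00032), Ccl9 (0.87 ± 0.18, 0.0010), Ccl2 (0.65 ± 0.14, 0.0018), Cx3cr1 (0.55 ± 0.13, 0.0034) and Ccl6 (0.40 ± 0.13, 0.031). Ccr7 (-0.68 ± 0.19, 0.012), Cxcr4 (-0.58 ± 0.17, 0.018) and Ccl25 (-0.17 ± 0.05, 0.012) fell. Most of these calls were lost without tumours 6, 8 and 23, where 2 genes rose, Ccl7 (0.38, 0.044) and Cxcl14 (0.20, 0.047), against 1.31% of all genes that rose and 0.209% that fell, and Cxcr4 turned to 0.01 (0.98). Without the 7 tumours that stood apart none passed in limma, where 1.18% of all genes rose and 0.132% fell, and at an unadjusted p under 0.05, 7 rose and 0 fell, against 7.28% and 6.12% of all genes. With the T cell and macrophage scores in the fit 1 gene, Cxcl14, passed, against 2.50% of all genes that rose and 0.765% that fell, and Ccl6 turned to -0.02 (0.95). Cxcl14, a ligand that fibroblasts and epithelia make, had a slope of 0.32 ± 0.06 (0.00044) over all tumours. Without tumour 2, Ccl11 (0.34, 0.052) did not pass.

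**Figure D3:**
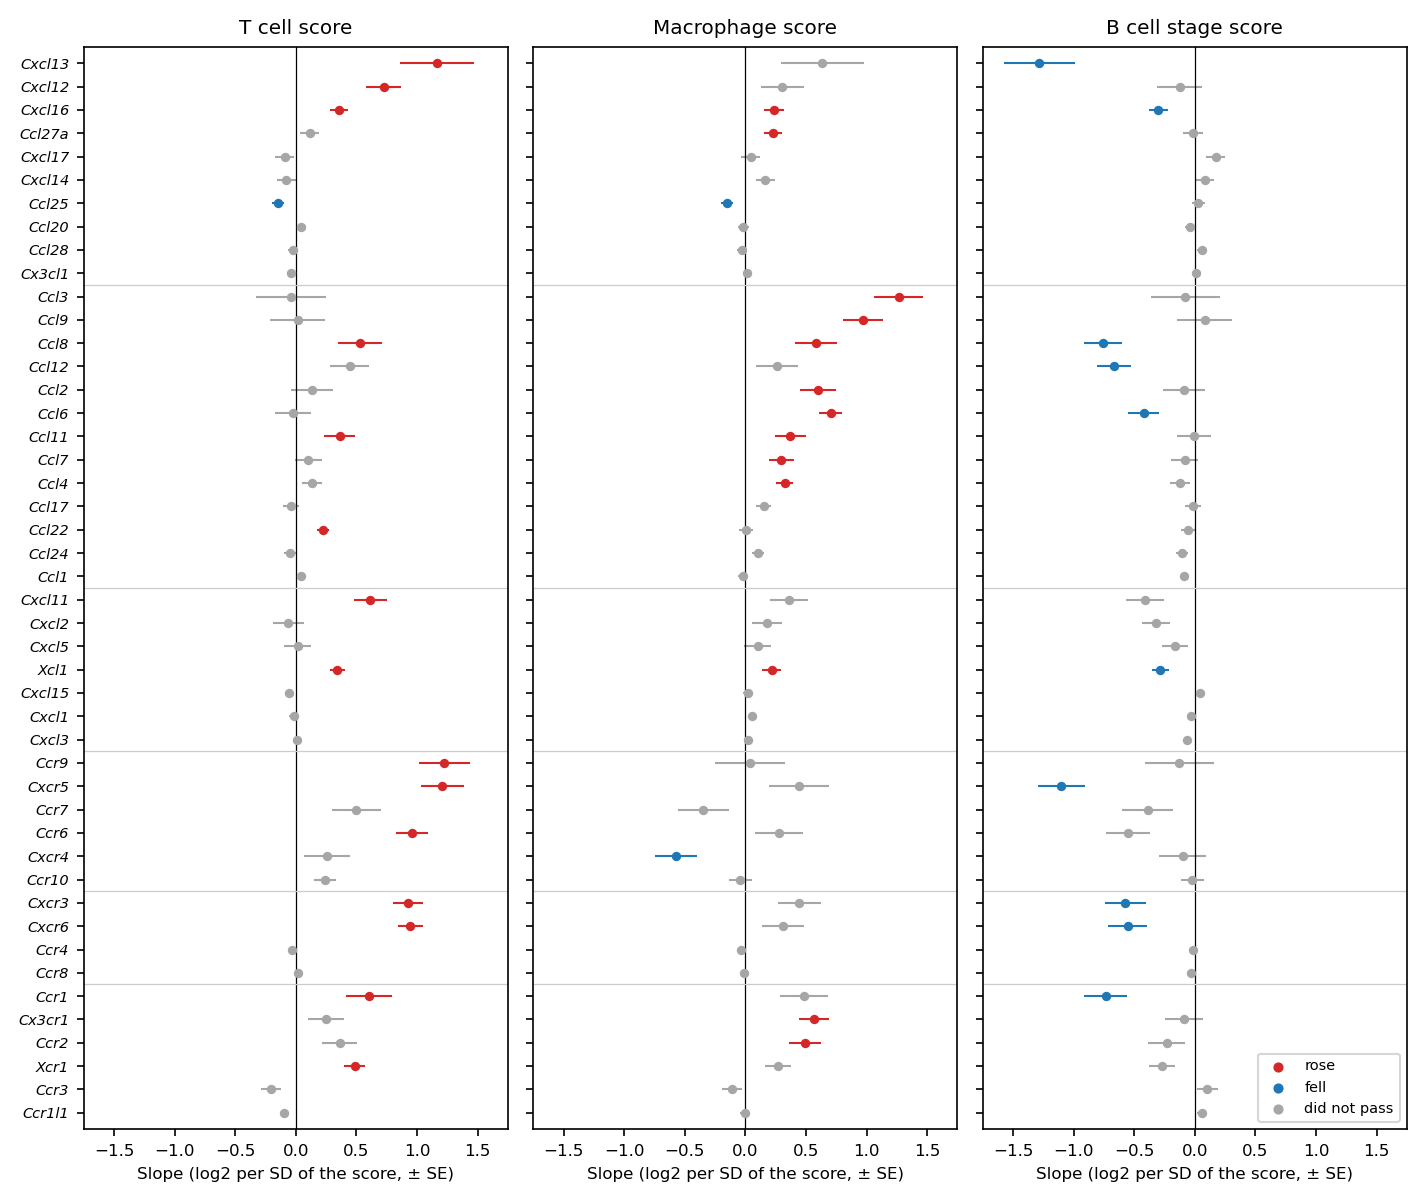
Slope of each of the 46 genes (vertical axis, grouped by role as in the map of levels) along the T cell, macrophage and B cell stage scores, in log2 per SD of the score, with bars of 1 SE (39 tumours). Red points rose and blue points fell at an adjusted p under 0.05; receptors such as Cxcr5, Ccr9 and Cxcr6 lead the T cell panel, Ccl3, Ccl9 and Ccl6 the macrophage panel, and all 10 called genes of the stage panel lie left of 0.

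B cell stage was scored by taking the mature from the precursor B cell score. A positive slope therefore means more where the precursor score is high relative to the mature score, called precursor type here. Tumours low in both can lie on this side. Tumours 6, 8 and 23 had precursor scores of -1.57, -1.42 and -1.55, with mature scores lower still. Their stage scores were 0.66, 1.03 and 1.06. In limma no chemokine gene rose along the stage score and 10 fell, against 2.82% and 2.67% of all genes. At an unadjusted p under 0.05 in limma, 1 rose and 17 fell, against 12.5% and 8.19% of all genes. Lower in tumours of precursor type were the follicular pair Cxcl13 (-1.28 ± 0.29, adjusted p in limma 0.0069) and Cxcr5 (-1.10 ± 0.19, 0.00082), the ligands Ccl8 (-0.76 ± 0.16, 0.0030) and Ccl12 (-0.66 ± 0.14, 0.0042) and the receptor Ccr1 (-0.74 ± 0.18, 0.010). These 5 passed also without tumour 2, where 0.886% of all genes rose and 1.08% fell, with slopes from -1.07 (Cxcl13) to -0.57 (Ccl12). They passed without the 7 tumours that stood apart, from -0.97 (Cxcl13) to -0.54 (Ccl12), where 3.30% of all genes rose and 2.91% fell. The remaining 5, Cxcr3, Cxcr6, Ccl6, Cxcl16 and Xcl1, had slopes from -0.57 to -0.28 and did not pass without tumour 2, and the first 4 of them did not pass without the tumours that stood apart. Cxcr4, the receptor that holds precursors in the marrow, had a slope of -0.10 and Ccr7 one of -0.39, and neither passed. With the T cell, macrophage and fibroblast scores in the fit, Cxcr5 (-0.77, 0.050) and Ccl12 (-0.76, 0.040) passed, against 0.154% of all genes that rose and 0.215% that fell, and Cxcl13 (-0.65, 0.57), Ccl8 (-0.64, 0.11) and Ccr1 (-0.31, 0.72) did not.

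Many chemokine genes are known targets of the transcription factor NF-kB, and 23 of the 46 rose along a score of NF-kB target genes while 3 fell, against 16.8% and 20.7% of all genes. Cxcr5 (1.27 ± 0.16, adjusted p in limma 9.7e-08), Cxcl13 (1.13 ± 0.31, 0.0032), Ccl3 (0.90 ± 0.25, 0.0037), Cxcr3 (0.86 ± 0.13, 2.5e-06) and Ccr6 (0.81 ± 0.16, 6.8e-05) had the largest slopes. Ccr3 (-0.34 ± 0.07, 0.00014), Ccl25 (-0.18 ± 0.05, 0.0015) and Ccr1l1 (-0.09 ± 0.04, 0.042) fell. Cxcl1, Cxcl2 and Cxcl3, whose promoters with the motif are printed above, did not pass. Cxcl2 and Cxcl3 were dim, with means of 3.79 and 2.65. Cxcl2 exceeded its array median in 1 tumour, and Cxcl3 never did. The probe set used for Cxcl1 had an SD of 0.21. Other probe sets of Cxcl1 correlated with it at r = 0.44 and 0.45. A slope could be missed at such levels or probe sets, so no conclusion on the motif is drawn. The 17 called without the 7 tumours that stood apart (16 rose, 1 fell) were set against 10.1% and 12.4% of all genes. Ccl9 (0.32, 0.099), Ccl2 (0.16, 0.46), Ccl6, Ccl22, Ccl25, Ccr1l1, Ccr2, Cxcl11, Cxcl12 and Xcr1 did not pass there. With the 3 cell scores in the fit, 7 rose and 1 fell, against 6.18% and 7.32% of all genes, among them Cxcr5 (1.06, 0.0058), Ccl3 (0.91, 0.047) and Xcl1 (0.42, 0.00083). Of the other genes with the largest slopes, Cxcl13 (0.23, 0.84), Cxcr3 (0.31, 0.33) and Ccr6 (0.31, 0.43) did not pass in that fit. Without tumour 2, Ccl2 (0.35, 0.077), Ccr2 (0.26, 0.11), Ccl12 (0.38, 0.068), Cxcl11 (0.11, 0.27), Cxcl12 (0.14, 0.59), Ccl22, Ccl25 and Ccr1l1 did not pass.

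Along the score of G2/M proliferation genes, 3 of the 46 rose and 21 fell, against 19.8% and 20.1% of all genes. Ccl3 (-1.12 ± 0.22, adjusted p in limma 7.7e-05), Ccl9 (-0.86 ± 0.18, 0.00015), Cx3cr1 (-0.68 ± 0.11, 2.8e-06), Cxcr5 (-0.68 ± 0.24, 0.019) and Ccl2 (-0.65 ± 0.14, 0.00025) fell most, and Cxcr4 (0.60 ± 0.17, 0.0036), Ccr3 (0.25 ± 0.08, 0.0087) and Ccl25 (0.22 ± 0.04, 2.7e-05) rose. Without the 7 tumours that stood apart 12 genes fell and none rose in limma, against 8.18% and 13.0% of all genes, and at an unadjusted p under 0.05, 13 fell and 1 rose, against 13.7% and 18.5% of all genes. In that setting Cxcl13 (-1.34, 8.8e-05), Cxcr5 (-0.99, 0.00042) and Ccr1 (-0.85, 6.7e-05) fell, while Ccl3 (-0.20, 0.38) and Ccl9 (-0.27, 0.19) did not pass and Cxcr4 (-0.02, 0.91) and Ccl2 (0.08, 0.77) changed sign. Of the other called genes, Ccl7, Ccl11, Cxcl11 and Cxcl14 also changed sign there, and Ccl6, Ccl22, Ccl25, Ccl27a, Ccr2, Ccr3, Cxcr6 and Xcr1 did not pass. With the 3 cell scores in the fit 3 rose and 5 fell, against 11.8% and 12.5% of all genes, and Ccl3 (-0.73, 0.052), Ccl9 (-0.50, 0.12), Ccl2 (-0.50, 0.065), Ccr3 (0.27, 0.10) and Cxcr5 (0.01, 0.98) did not pass. Without tumour 2 alone, Cxcr5 (-0.23, 0.46), Cxcr3 (-0.24, 0.24), Cxcr6 (-0.01, 0.96), Ccr6 (-0.09, 0.72), Ccl7, Ccl22, Cxcl11, Cxcl16 and Xcr1 did not pass.

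Ligands were then set against their receptors across tumours, as Pearson's r and as Spearman's rho. Each p-value is 2-sided and comes from a permutation test with 100000 draws, adjusted by Benjamini and Hochberg's method over the 26 pairs computed. Where a gene fell into separate clusters, r was taken within the larger one. Of these pairs 9 passed by r, all positive, and 6 by rho; of the 20 ligand and receptor pairs 6 passed by r and 3 by rho. Cxcl13 and Cxcr5 gave r = 0.63 and rho = 0.66 in the 34 tumours with low Cxcr5 (permutation p = 0.00015 and 4e-05, adjusted 0.00097 and 0.00032), and r was 0.64 once the 2 tumours farthest from the median of Cxcl13 were left out. The 5 tumours with high Cxcr5 all had a Cxcl13 level above 10, but so did some with low Cxcr5, such as tumours 22 (11.28) and 24 (10.82). Ccl3 and its receptor Ccr1 gave r = 0.52 and rho = 0.58 over the 36 tumours with low Ccl3 (permutation p = 0.00097 and 0.00032, adjusted 0.0036 and 0.0017), and 0.61 without the farthest 2, but the partial r given the T cell, macrophage and fibroblast scores was 0.29 (adjusted 0.23). In the 3 tumours with high Ccl3, Ccr1 was between 4.13 and 5.68.

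Other pairs were weaker without a few tumours. Cxcl16 and Cxcr6 gave r = 0.71 (permutation p = 6e-05, adjusted 0.00052) but rho = 0.37 (0.022, adjusted 0.065), and r was 0.38 without tumours 2 and 18. Ccl2 and Ccr2 gave r = 0.58 (0.00024, adjusted 0.0012) and rho = 0.49 (0.0017, adjusted 0.0073), and r was 0.33 without tumours 2 and 23 and 0.31 (adjusted 0.18) without the 7 tumours that stood apart. Ccl7 and Ccr2 gave r = 0.50 (0.0021, adjusted 0.0068) and rho = 0.39 (0.014, adjusted 0.051), and without tumour 2 r was 0.26 (adjusted 0.23), and 0.34 (adjusted 0.14) without the 7 tumours. Xcl1 and Xcr1 gave r = 0.43 over 35 tumours (0.0098, adjusted 0.028) and rho = 0.38 (0.027, adjusted 0.069), and r was 0.42 without the farthest 2 but 0.22 (adjusted 0.43) without the 7 tumours. Given the 3 cell scores none of these 4 passed, with a partial r of 0.39 for Cxcl16 and Cxcr6 (adjusted 0.062), 0.38 for Ccl2 and Ccr2 (0.067), 0.31 for Ccl7 and Ccr2 (0.15) and 0.43 for Xcl1 and Xcr1 (0.054). Pairs that did not pass include Cxcl12 with Cxcr4 (r = -0.16 over 36 tumours) and Ccl20 with Ccr6 (-0.0062 over 39). Cxcl11 with Cxcr3 did not pass either, with r = 0.05 over the 32 tumours outside the high Cxcr3 cluster, where r over all 39 was 0.59. Ccl25 and Ccr9 gave r = -0.31 over 35 tumours (permutation p = 0.070, adjusted 0.17), and without the tumours that stood apart r = -0.60 (adjusted 0.0029), which was past the threshold, while the partial r given the 3 cell scores was 0.02 (adjusted 0.92). With the mean of all probe sets per gene, Cx3cl1 and Cx3cr1 gave r = 0.56 (adjusted 0.0034), against 0.28 (adjusted 0.19) with 1 probe set each.

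Ligands encoded side by side on chromosome 11 were also among the pairs that passed. Ccl2 and Ccl7 gave r = 0.80 and rho = 0.83 (permutation p = 1e-05 for both, the smallest the draws can give, adjusted 0.00013 and 0.00026), and r was 0.74 without tumours 2 and 23. Ccl2 and Ccl12 passed as well without the 7 tumours (r = 0.49, adjusted 0.016, against 0.25 over all tumours). Ccl3 and Ccl4 gave r = 0.77 and rho = 0.67 over 36 tumours (1e-05 and 2e-05, adjusted 0.00013 and 0.00026), and r was 0.68 without the farthest 2. Ccl6 and Ccl9 gave r = 0.51 and rho = 0.61 (0.00079 and 5e-05, adjusted 0.0034 and 0.00032), and r was 0.53 without the farthest 2, but the partial r given the T cell, macrophage and fibroblast scores was -0.04 (adjusted 0.82).

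A further family, chosen after the values were seen, held the 21 pairs of these genes that are neighbours in gene order, adjusted over these 21. Neighbours here have no gene of the family between them and at most 3 other protein-coding genes. In it 8 passed by r, all positive, and 7 by rho. Beyond the pairs above, Ccl12 and Ccl8, whose promoters are printed above, gave r = 0.77 and rho = 0.74 (permutation p = 1e-05 for r, adjusted 7e-05 and 0.00010), r = 0.71 without the farthest 2 and a partial r of 0.73 (adjusted 0.00010). Ccl11, which lies between Ccl7 and Ccl12, gave r = -0.14 with Ccl12 (adjusted 0.49), and a partial r of -0.55 given the 3 cell scores (adjusted 0.0013), which was past the threshold. With Ccl7 it gave r = 0.46 (adjusted 0.010), which did not pass without tumour 2 (r = 0.31, adjusted 0.14), without the 7 tumours (0.33, 0.14) or as partial r (0.20, 0.37). Ccl6 and Ccl3 gave r = 0.54 over 36 tumours (adjusted 0.0024) and a partial r of 0.25 (adjusted 0.37). On chromosome 9, Cxcr6 gave r = 0.69 with Xcr1 (adjusted 0.0010), which was 0.43 without the farthest 2, and r = 0.59 with Ccr9 over 35 tumours (adjusted 0.0010). Given the 3 cell scores neither passed, with a partial r of 0.25 for Xcr1 and -0.22 for Ccr9 (adjusted 0.37 for both). Of the neighbours Cxcl5, Cxcl3, Cxcl15, Cxcl1 and Cxcl2 on chromosome 5 no pair passed; Cxcl1 and Cxcl2 gave r = 0.26 (adjusted 0.22), and r = 0.52 where each gene's probe sets were averaged, which passed.

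**Figure D4:**
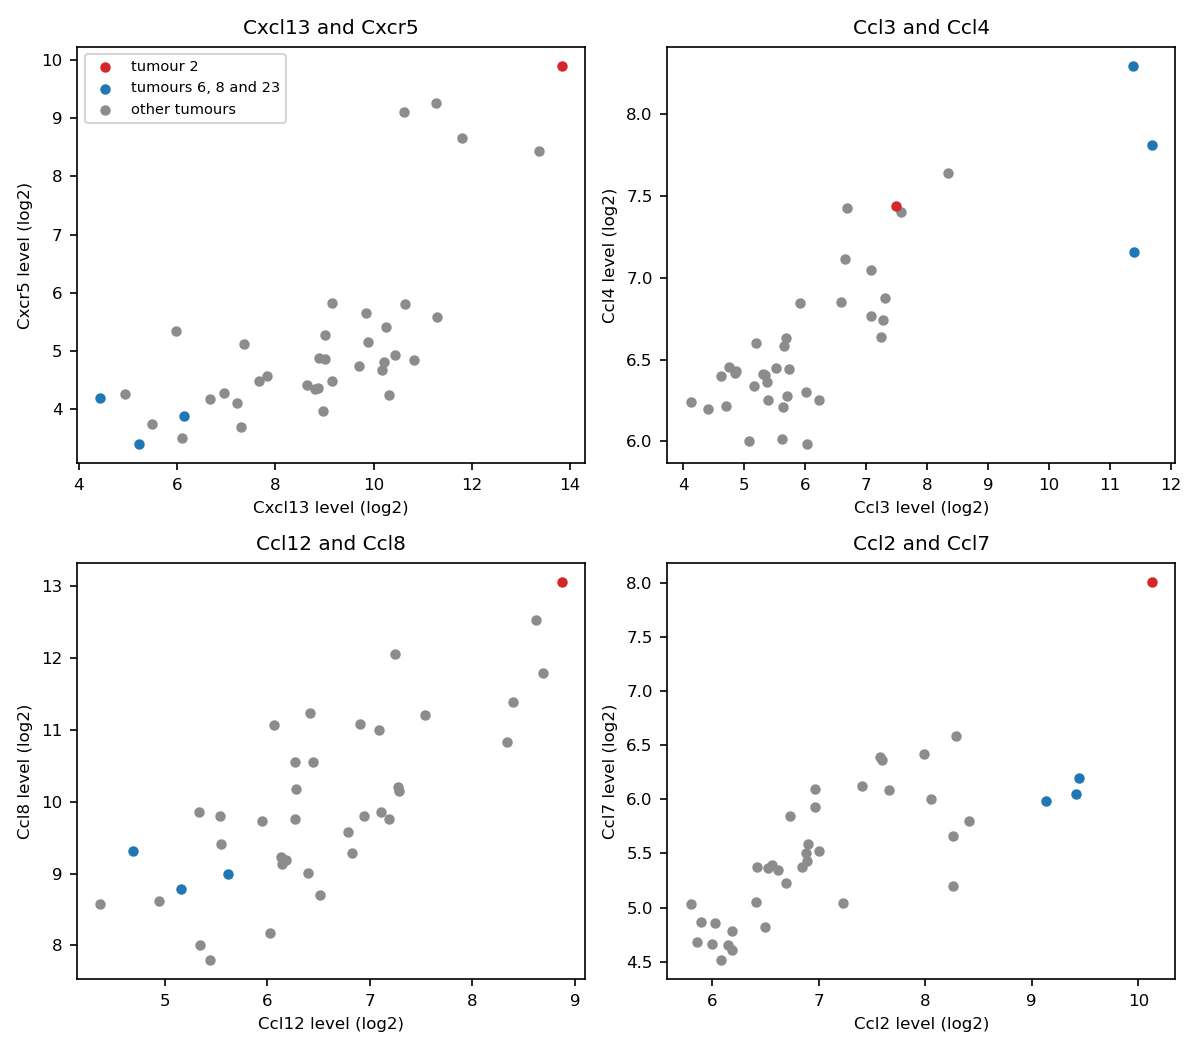
Levels (log2) of 4 pairs of genes, 1 point per tumour: Cxcl13 with its receptor Cxcr5, and the neighbouring ligands Ccl3 and Ccl4, Ccl12 and Ccl8, and Ccl2 and Ccl7. The 5 tumours with Cxcr5 above 8 lie apart in Cxcr5 but not in Cxcl13, where some tumours with low Cxcr5 are as high. Tumours 6, 8 and 23 lie apart at high Ccl3, and tumour 2 is the top point for Ccl8 and for Ccl7.

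The pathway around these receptors was followed with a list of 30 measured genes for decoy receptors, G proteins, receptor kinases, arrestins, regulators of G protein signalling, PI3 kinase subunits, cytoskeletal regulators (Dock2, Dock8, Elmo1, Rac2, Vav1 and Was), related positioning receptors, the protease Dpp4, which trims chemokines, and the platelet chemokines Pf4 and Ppbp. Of these 30, 3 rose and 2 fell along the T cell score, against 7.18% and 8.00% of all genes. Along the macrophage score 11 rose and 1 fell (14.7% and 15.5% of all genes), and along fibroblast 8 and 2 (10.7% and 5.46%). Along NF-kB target 16 rose and 1 fell (16.8% and 20.7%), and along G2/M 1 and 19 (19.8% and 20.1%). Along B cell stage 0 rose and 2 fell (2.82% and 2.67%). There 0 rose and 7 fell in limma at an unadjusted p under 0.05, against 12.5% and 8.19% of all genes. When the 7 tumours that stood apart were left out, 10 rose and 2 fell along the T cell score (against 7.34% and 6.01% of all genes), 2 and 0 along macrophage (1.01% and 0.319%), 0 and 0 along fibroblast (1.18% and 0.132%), 9 and 1 along NF-kB target (10.1% and 12.4%), 0 and 6 along G2/M (13.0% and 8.18%) and 1 and 4 along B cell stage (3.30% and 2.91%). Gpr183, an oxysterol receptor that positions B cells at the follicle edge, had a slope of 1.11 ± 0.19 along the T cell score (adjusted p in limma 6.3e-05) and 1.09 ± 0.19 along the NF-kB target score (1.8e-05). Rgs1, which shortens signalling by chemokine receptors in B cells, had slopes of 0.78 ± 0.13 (4.2e-05) and 0.91 ± 0.11 (1.3e-08) along the same scores and fell along B cell stage by 0.71 (0.0021). S1pr1, the receptor for egress from lymphoid organs, also fell along B cell stage, by 0.49 (0.038), but not without tumour 2 (-0.45, 0.11). The receptor kinases Grk5 (0.85 ± 0.14, 3e-05) and Grk3 (0.81 ± 0.21, 0.0030), the kinase subunit Pik3r5 (0.75 ± 0.17, 0.0010) and Ackr3, a scavenger of Cxcl12 (0.65 ± 0.14, 0.00036), rose along the macrophage score. Without the tumours that stood apart, Grk5 (0.49, 0.039) and Ackr3 (0.64, 0.024) passed, and Grk3 (0.16, 0.62) and Pik3r5 (0.08, 0.72) did not. Grk5 (-0.95), Grk3 (-0.90) and Pik3r5 (-0.90) fell along the G2/M score, and without those tumours Grk5 (-0.65) passed in limma, while Grk3 (-0.15, 0.54) and Pik3r5 (-0.18, 0.17) did not.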

How the data were processed

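RNA of 39 Eµ-myc lymphomas was measured on 1 array each. The deposited log2 values were produced by the authors with RMA (affy package), per the submitters' processing notes, and versions are not given in the sources. RMA equalises the distributions of the arrays, which hides any change in total RNA and flattens dim genes. The number of arrays limits the precision. No unassigned columns were in the value table.

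Of 45101 probe sets, 34945 named 1 gene, 932 several and 9211 were not listed in the platform annotation. There were 64 controls, some of which are also counted as not listed. RefSeq's GRCm38.p6 gene table held the Entrez identifier of 34741 of the first kind, with 0 symbols changed. The probe set with the highest mean represents a gene; 17 of the 46 genes had several, and 1 disagreed (r under 0.2).

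Fits used limma 3.58.1 (lmFit, eBayes with trend) in R 4.3.3, with the genes of a score left out of its fit, and were tested on simulated data. Separate clusters required a gain of over 10 in BIC for a mixture of 2 components (mclust 6.1.1) with at least 3 tumours in the smaller. Permutation tests used numpy 2.4.6 and scipy 1.17.1. The lists measured 16 of 18 T cell, 13 of 14 cytotoxic and NK cell, 19 of 20 macrophage, 4 of 5 plasmacytoid dendritic cell, 18 of 18 fibroblast, 11 of 12 pan B cell, 14 of 14 precursor B cell, 12 of 13 mature B cell, 19 of 20 G2/M and 14 of 18 NF-kB target genes. No chemokine gene is in them. Alternatives were the mean of all probe sets, no tumours that stood apart, only genes above the median level, ranks of the score, and other cell scores as covariates. Fits without single tumours, fits of the pathway list without tumours, and the shorter NF-kB pattern were chosen after seeing the data.

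Named genes are the 20 with the largest SD, in each fit the 5 largest slopes in either direction among called genes, and for the pathway list the 4 largest; others may be named as members, and alternatives list further members. The genes, lists and tests were chosen with earlier results of these data known. Ccl19, Ccl21a, Ccl26 and Cxcr1 had no probe set naming them alone and were not analysed here as genes.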

Additional observations from a re-analysis of the deposited data

How the results depend on the processing

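Counts of the 46 genes that passed, both directions together, are given with the share of all genes that passed. Without the 7 tumours that stood apart, the 16 genes with an SD of at least 1 became 8 (4.18%), and the calls were 6 along the macrophage score (1.33%, against 30.2% over all tumours), 0 along fibroblast (limma, 1.31% against 16.2%, with 7 of the 46 at an unadjusted p under 0.05), 17 along NF-kB target (22.5% against 37.5%) and 12 along G2/M (21.2% against 39.9%). With other cell scores as covariates they were 7 (16.4%), 1 (3.27%), 8 (13.5%) and 8 (24.3%) for the same 4 scores and 2 (0.369%) along B cell stage. With ranks of the score, 14 (34.4%) passed along G2/M and 6 (3.42%) along B cell stage. Restricted to genes above the median level, only 14 of the 46 are tested; an SD of at least 1 was found for 9 (8.21%) and of at least 0.5 for 13 (33.8%), and 6 (21.7%) passed along the T cell score, 9 (49.9%) macrophage, 6 (27.3%) fibroblast, 11 (57.2%) NF-kB target, 9 (61.3%) G2/M and 6 (10.2%) stage. Settings added after seeing the data gave 8 along T cell (3.77%) and 5 along stage (1.97%) without tumour 2, and 2 along fibroblast (1.52%) without tumours 6, 8 and 23. Of the 9 passing pairs, 3 passed as partial r.

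Among the 42 named slopes, those that changed sign were of Cxcr4 without the tumours that stood apart (0.067 along macrophage, 0.101 along fibroblast, -0.0220 along G2/M) and without tumours 6, 8 and 23 (0.0116 along fibroblast). Ccl2 did so along G2/M without the tumours that stood apart (0.0761). With the other cell scores, Ccl6 along fibroblast (-0.0241) and Cxcr5 along G2/M (0.0098) did, and so did the partial r of Ccl6 with Ccl9 (-0.0442). The cause was not tested. Of 42 named slopes, 39 kept direction and call with the mean of probe sets and 39 with ranks, 35 without tumour 2, 22 without the tumours that stood apart and 18 with covariates. No paired analysis was possible because all tumours form 1 group. Planned pairs with Ccl19 and Ccl21a were not run. RMA and dim probe sets limit what can be seen of the 8 genes that never exceeded an array median.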

Other observations

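Probe sets that name several genes were left out of every comparison. One that names the Ccl21 genes among 9 genes averaged 8.65 ± 1.98 (log2, SD, n = 39) and ran from 4.91 in tumour 14 through 8.91 to 12.89 in tumour 2, with 12.45 in tumour 27. One that names Ccl19, a ligand of Ccr7 like the Ccl21 products, among 10 genes averaged 7.38 ± 1.76 and ran from 4.97 in tumour 9 through 7.07 to 12.75 in tumour 2, with 10.57 in tumour 1. The genes that share these probe sets cannot be told apart. Both probe sets that name Ccl27a with Ccl27b varied little, with an SD of 0.28 and 0.40.

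Rgs13, a regulator of G protein signalling of germinal centre B cells, averaged 4.49 ± 2.74 and ran from 2.58 to 12.31 (log2, n = 39), with a slope of 1.19 ± 0.39 along the NF-kB target score (adjusted p in limma 0.014).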
